A study of Mus musculus with 28 samples.

Results

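Messenger RNAs of inflammatory proteins are made short-lived by sequences in their 3′ untranslated region (3′ UTR). AU-rich elements are bound by the tristetraprolin (ZFP36) family, which recruits the deadenylases that shorten the poly(A) tail, whereas stem-loops are cut by the Regnase ribonucleases (ZC3H12 family) or bound by Roquin. HuR, encoded by Elavl1, binds AU-rich elements too and mostly protects the mRNA, and KSRP, encoded by Khsrp, brings in the decay enzymes. In macrophages stimulated with lipopolysaccharide (LPS), this system limits the output of TNF and other cytokines.

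The 8 genes described here are Zfp36, Zfp36l1, Zfp36l2, Zc3h12a, Zc3h12c, Rc3h1, Elavl1 and Khsrp, chosen by symbol for these roles from the 40021 genes of the expression table. All 8 were found, and all 8 were among the 13164 genes with an RPKM (reads scaled to gene length and library size) of at least 1 in at least 5 of 28 retinas. Leaving the 4 h retinas aside, each of the 8 still reached an RPKM of 1 in 8 or more of the other 22 retinas, so none passed through its 4 h values alone. In GRCm38 the genes lie at chr7:28376784-28380253 (Zfp36), chr12:80107754-80113013 (Zfp36l1), chr17:84183931-84187947 (Zfp36l2), chr4:125118423-125127840 (Zc3h12a), chr9:52111344-52168572 (Zc3h12c), chr1:160906418-160974978 (Rc3h1), chr8:4285382-4325413 (Elavl1) and chr17:57021051-57031522 (Khsrp), all on the reverse strand except Rc3h1.

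The samples were tdTomato-high, DRAQ7- microglia sorted by flow cytometry from single retinas of male heterozygous Cx3cr1CreER:R26-tdTomato mice on a C57BL/6 background. In these mice tamoxifen-activated Cre, expressed from the Cx3cr1 gene that microglia share with some other myeloid cells, switches on a red reporter. All groups carried both alleles and, per the study's methods, were given tamoxifen some weeks before LPS. The ages of the single mice are not in the labels. There were 10 naïve retinas, and the others were collected 4 h (6 retinas), 18 h (5 retinas) or 2 weeks (7 retinas) after intravitreal LPS, which induces endotoxin-induced uveitis (EIU). No retinas injected with vehicle were analysed here, so LPS and the injection itself cannot be told apart. The retinas came from 2 experiments, which contributed 6 and 4 naïve, 3 and 3 at 4 h, 4 and 1 at 18 h, and 4 and 3 at 2 weeks. The labels give the eye side but not the animal, so 2 eyes of 1 mouse may be present and p-values over retinas may be too small.

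The table states between 7510000 and 19700000 alignments per retina. All 14 microglial marker genes had a median RPKM of at least 1 in every group. Their summed RPKM ranged from 4679 to 24181, with medians of 11867 (4 h) and 11666 (18 h) against 17091 (naïve) and 20553 (2 weeks). This sum mixes genes that moved differently and is no measure of cell number. At 4 h the medians of C1qa and C1qb (1341 and 5007 RPKM) were above naïve (1064 and 4541 RPKM). Those of the other markers were below it, as for Gpr34 (115 RPKM, naïve 1816 RPKM). Rod photoreceptor transcripts were present throughout, with medians of the summed RPKM of 11 markers of 2179 at 18 h and of 3940 (naïve), 4237 (4 h) and 4420 (2 weeks) in the other groups. Summed monocyte markers were at 148 to 320 RPKM at 18 h and 10.1 to 57.0 RPKM in naïve retinas. Ms4a4c made up most of that sum (134 to 315 RPKM at 18 h), and the defining markers Ly6c2 and Ccr2 had 18 h medians of 0.0321 and 0.107 RPKM. Summed neutrophil markers had medians of 13.1 RPKM at 18 h and 17.7 RPKM in naïve retinas, with Csf3r at 10.2 and 16.9 RPKM. S100a8 and S100a9 were at 0 in every naïve retina and had 18 h medians of 0.638 and 0.994 RPKM. Ly6g, Retnlg, Camp and Mmp8 had medians of 0 in both groups. Summed markers of lymphocytes and natural killer cells were at 46.0 to 148 RPKM at 18 h (median 62.4) and 20.2 to 81.5 RPKM in naïve retinas (median 33.9). Among them Nkg7, a cytotoxic granule gene, was at 5.77 to 86.4 RPKM at 18 h and 0 in every naïve retina, Trac had an 18 h median of 4.07 RPKM and a naïve median of 0, and Cd3e and Ms4a1 were at no more than 0.297 RPKM in both groups. Cd79b made up most of the naïve sum, at 20.2 to 81.3 RPKM (median 33.4). At 18 h Cd79b was at 27.5 to 53.6 RPKM (median 32.6). The part of these cells in the 18 h values below was not tested. In a sorted bulk sample, more cells with a transcript and more transcript per cell cannot be told apart.

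The AU-rich heptamer TATTTAT is the core of the best-known ZFP36 binding site. It was looked for, on the sense strand only, in the longest annotated 3′ UTR of each gene (GENCODE M21, GRCm38), and 29.4% of the 10626 tested genes with such an annotation held it. The sites below are matches to this heptamer in 3 classic target mRNAs and in the mRNAs of several of the regulators themselves. Stem-loops were not searched for. Each is the 29-base stretch, starting up to 11 bases before a TATTTAT, that holds the most ATTTA pentamers, 5′ to 3′ on the mRNA strand, with each TATTTAT in capitals.
Tnf: TATTTATTATTTATTTATTATTTATTTAT
Il1b: aaccacttaccTATTTATTTATgtattta
Cxcl2: atttatctatgTATTTATTTATTTATtaa
Zfp36: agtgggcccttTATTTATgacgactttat
Zfp36l1: ttatcaaaacgTATTTATtgccaaactat
Zfp36l2: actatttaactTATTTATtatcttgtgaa
Zc3h12c: gctataatcatTATTTATaggaacaaaga
Elavl1: attTATTTATTTATTTATtttTATTTATt

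In GRCm38, on the reverse strand except where said, these sites lie in the 3′ UTRs at chr17:35199678-35199706 (Tnf), chr2:129364808-129364836 (Il1b), chr5:90905332-90905360 (Cxcl2, forward strand), chr7:28376966-28376994 (Zfp36), chr12:80108422-80108450 (Zfp36l1), chr17:84184914-84184942 (Zfp36l2), chr9:52114862-52114890 (Zc3h12c) and chr8:4285776-4285804 (Elavl1). Overlapping copies were counted: the Tnf 3′ UTR, of 764 bases, held 8 TATTTAT copies, and the Elavl1 3′ UTR also held 8 but over 4218 bases. The 3 ZFP36 family mRNAs held 3 copies each, in 774 (Zfp36), 1835 (Zfp36l1) and 1822 bases (Zfp36l2). Zc3h12c and Rc3h1 held 2 each, in 4062 and 7181 bases. Zc3h12a and Khsrp held none, although their 3′ UTRs had 3 and 1 ATTTA pentamers. A match is a description of the sequence and does not show that a protein bound there.

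In naïve microglia the regulators differed widely in level. Zfp36l2 had the highest median (75.9 RPKM), followed by Zfp36l1 (18.9 RPKM), Elavl1 (6.74 RPKM), Rc3h1 (3.57 RPKM), Zfp36 (3.43 RPKM), Khsrp (0.984 RPKM), Zc3h12c (0.969 RPKM) and Zc3h12a (0.802 RPKM). Zfp36l2 was above Zfp36l1 and Zfp36l1 above Elavl1 in 10 of 10 naïve retinas. Lower in the order the neighbours were less separate: Rc3h1 was above Zfp36 in 5 of 10, Khsrp above Zc3h12c in 5 of 10 and Zc3h12c above Zc3h12a in 6 of 10. At 4 h the order opened with Zfp36 (87.4 RPKM), Zfp36l1 (31.0 RPKM) and Zfp36l2 (15.9 RPKM), with Zfp36 above Zfp36l1 in 5 of 6 retinas and Zfp36l1 above Zfp36l2 in 4 of 6. By 2 weeks it again opened with Zfp36l2 (33.0 RPKM), Zfp36l1 (15.4 RPKM) and Elavl1 (9.74 RPKM). RPKM is scaled to gene length, which makes these levels comparable between genes.

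At 4 h after LPS, Zfp36, Zc3h12a and Zc3h12c rose and Zfp36l2 fell, whereas Zfp36l1, Rc3h1, Elavl1 and Khsrp did not pass the test. A gene was called when limma gave a Benjamini-Hochberg adjusted p of at most 0.05 over all 13164 genes and a change of at least 2-fold on the log2(RPKM + 1) scale, which understates changes of low genes. Of the 8 regulators, 3 were called higher, against a background of 3.68% of all genes tested (485 genes), and 1 was called lower, against 4.39% (578 genes). The median log2 fold change of the 8 was 0.31, beside -0.11 over all genes tested. With the retinas rescaled to the same summed RPKM, that median of all genes shifted to -0.28 and the calls over all genes to 409 higher and 1001 lower, while the same 4 regulators were called in the same directions.

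**Figure D1:**
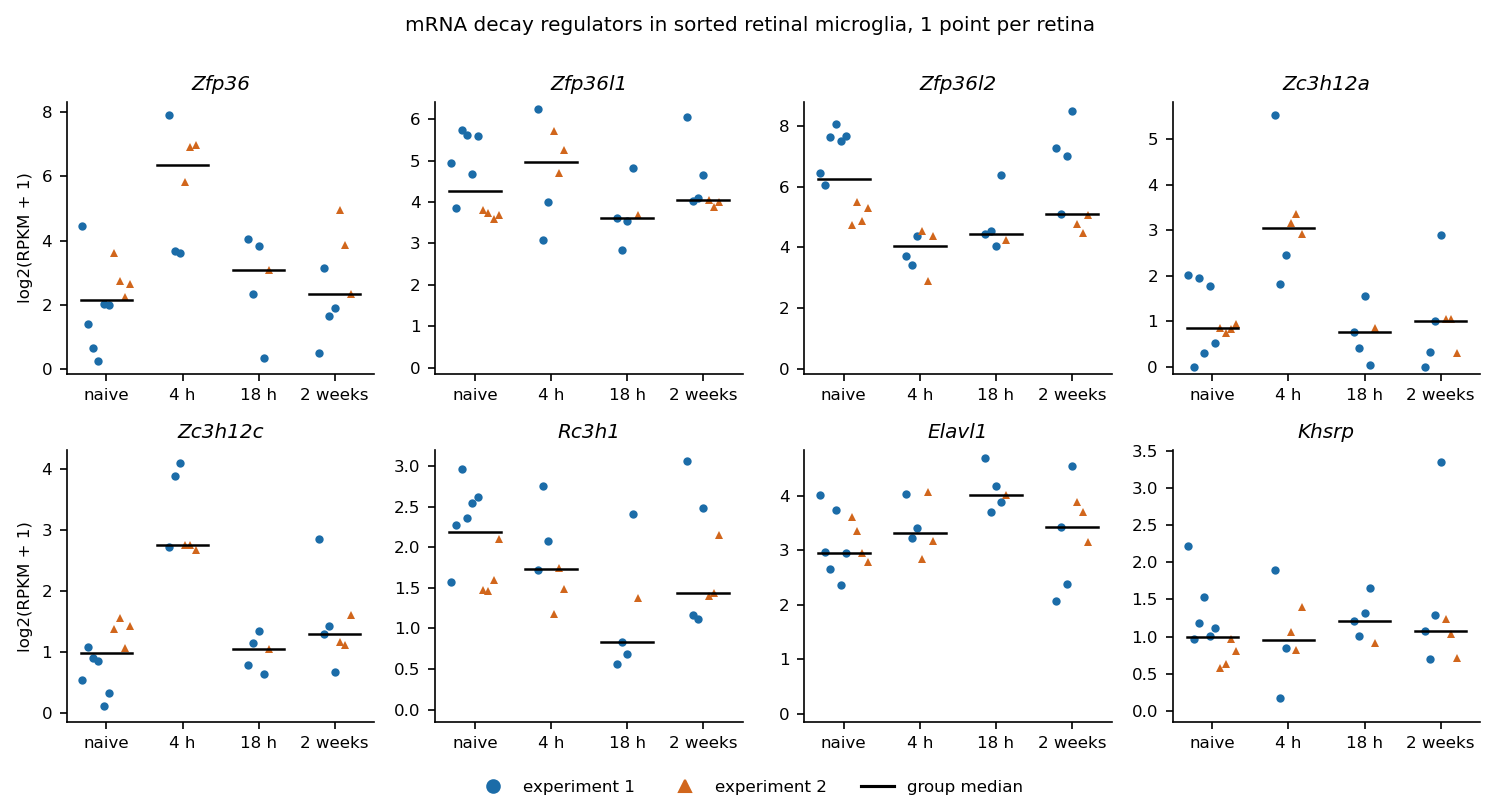
RPKM of the 8 regulators in each of the 28 retinas, as log2(RPKM + 1), by group. Circles are retinas of experiment 1, triangles of experiment 2 and bars the group medians. All 6 retinas at 4 h lay above the 10 naïve retinas for Zc3h12c and below them for Zfp36l2.

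Zfp36 encodes tristetraprolin, the founding member of the family and itself an LPS-induced gene in macrophages. Its RPKM ranged from 0.194 to 21 in naïve retinas, with a median of 3.43. At 4 h it ranged from 11.2 to 242, with a median of 87.4. The values at 4 h were widely spread: the retinas of experiment 1 gave 242, 11.9 and 11.2 RPKM and those of experiment 2 gave 55.4, 119 and 125 RPKM. Of these 6 retinas, 4 exceeded every naïve retina. The log2 fold change was 3.61 ± 0.71 (SE; 12.2-fold; limma adjusted p = 0.000712). Within the experiments it was 3.27 ± 1.04 (adjusted p = 0.106) in experiment 1, short of the threshold, and 3.75 ± 0.55 (adjusted p = 0.00119) in experiment 2.

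By 18 h Zfp36 had come down to 15.7, 4.01, 13.3, 0.279 and 7.55 RPKM in the 5 retinas. All 5 fell within the naïve range. The 18 h level was lower than at 4 h by limma (log2 fold change -3.08 ± 0.83, adjusted p = 0.022), a call that was lost on leaving out 4 h replicate 1, 5 or 6 or 18 h replicate 2 or 4, with adjusted p up to 0.0937. At 2 weeks the values ran from 0.408 to 30.1 RPKM, with a median of 4.02, also lower than at 4 h (log2 fold change -3.20 ± 0.77, adjusted p = 0.00707). In experiment 1 alone neither fall passed the threshold (adjusted p = 0.466 and 0.18).

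Zfp36l1 encodes a close paralogue of tristetraprolin, with the same zinc fingers and the same AU-rich target sequence. In naïve retinas it ranged from 11.1 to 52.0 RPKM (median 18.9), and at 4 h from 7.53 to 74.5 RPKM (median 31.0). The ranges overlapped over most of their length, and the log2 fold change of 0.31 ± 0.46 was not called (limma adjusted p = 0.767). The 2 experiments gave different pictures. In experiment 2 the 3 retinas at 4 h (51.0, 25 and 36.9 RPKM) were above all 4 naïve retinas (11.1 to 12.9 RPKM), with a log2 fold change of 1.51 ± 0.23 that passed the test within that experiment (adjusted p = 0.00169). In experiment 1 the naïve retinas were higher (13.4 to 52.0 RPKM), the 4 h values of 74.5, 7.53 and 14.9 RPKM lay on both sides of them, and the log2 fold change was -0.63 ± 0.68 (adjusted p = 0.772). The difference between the responses was 2.14 ± 0.84 on the log2 scale but did not pass the test across all genes (adjusted p = 0.801).

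The later Zfp36l1 values were 11.2, 6.19, 10.6, 27.4 and 11.8 RPKM at 18 h and 13.6 to 65.7 RPKM (median 15.4) at 2 weeks. The log2 differences from naïve were -0.82 ± 0.49 and -0.13 ± 0.44, neither of them called (adjusted p = 0.399 and 1). In experiment 2 alone Zfp36l1 was lower at 2 weeks than at 4 h (-1.25 ± 0.25, adjusted p = 0.00887), and its single 18 h retina held 11.8 RPKM.

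Zfp36l2, the third family member, moved the opposite way to Zfp36. Naïve retinas held 26.0 to 264 RPKM (median 75.9), and the 4 h retinas held 12.1, 9.63 and 19.7 RPKM in experiment 1 and 22.5, 6.45 and 19.7 RPKM in experiment 2. Every 4 h retina was below every naïve retina, as was the case for 1.42% of all genes tested (187 genes). The log2 fold change was -2.49 ± 0.58 (limma adjusted p = 0.00404), a level 0.178 times that of naïve retinas. On untransformed RPKM the fall did not pass (adjusted p = 0.182). The naïve level itself differed between the experiments, with 65.4 to 264 RPKM in experiment 1 and 26.0 to 43.9 RPKM in experiment 2, which did not overlap. Within experiment 1, naïve replicates 1 and 2 held 86.4 and 65.4 RPKM and replicates 3 to 6 held 179 to 264 RPKM. Replicates 3 to 6 also had the lowest summed microglial markers among naïve retinas (9416 to 12171 RPKM, against 16900 to 21912 RPKM). The part of this split in the fall was not tested. The fall was -3.39 ± 0.67 (adjusted p = 0.00428) in experiment 1 and -1.17 ± 0.37 (adjusted p = 0.0536, short of the threshold) in experiment 2, and the difference between them was not called (2.22 ± 0.88, adjusted p = 0.801).

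At 18 h the Zfp36l2 values were 20.7, 22.2, 15.5, 82.8 and 18.2 RPKM, and 4 of these 5 retinas were below every naïve retina. The log2 fold change from naïve was -1.64 ± 0.61 and did not pass the test (adjusted p = 0.131). With the experiment as a covariate it was -1.93 ± 0.51 and passed (adjusted p = 0.0178), and in the 4 retinas of experiment 1 alone it was -2.37 ± 0.61 (adjusted p = 0.0515). The single 18 h retina of experiment 2 held 18.2 RPKM, below the 4 naïve retinas of that experiment, and allows no test of its own. At 2 weeks the range was 21.1 to 360 RPKM with a median of 33.0, and 6 of 7 retinas exceeded every 4 h retina. This was higher than at 4 h (2.14 ± 0.62, adjusted p = 0.0324), a call lost without 4 h replicate 1, 2 or 5 or without 2-week replicate 1, 3 or 4 (adjusted p up to 0.0912), and not made in experiment 2 alone (0.83 ± 0.40, adjusted p = 0.189).

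The opposite shifts changed the make-up of the family. Zfp36 made up 0.0622% to 22.3% of the summed RPKM of Zfp36, Zfp36l1 and Zfp36l2 in naïve retinas (median 5.35%), and 24.4% to 79.1% at 4 h (median 55.9%). Zfp36l2 made up 51.9% to 86.7% (median 74.8%) in naïve retinas and 3.69% to 43.1% (median 14.1%) at 4 h. Zfp36 was the more abundant of the pair in 5 of 6 retinas at 4 h, against 0 of 10 naïve, 0 of 5 at 18 h and 1 of 7 at 2 weeks. The summed level of the family overlapped between naïve (43.4 to 312 RPKM) and 4 h retinas (29 to 329 RPKM). These shares were computed after the separate values had been seen and were not tested.

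**Figure D2:**
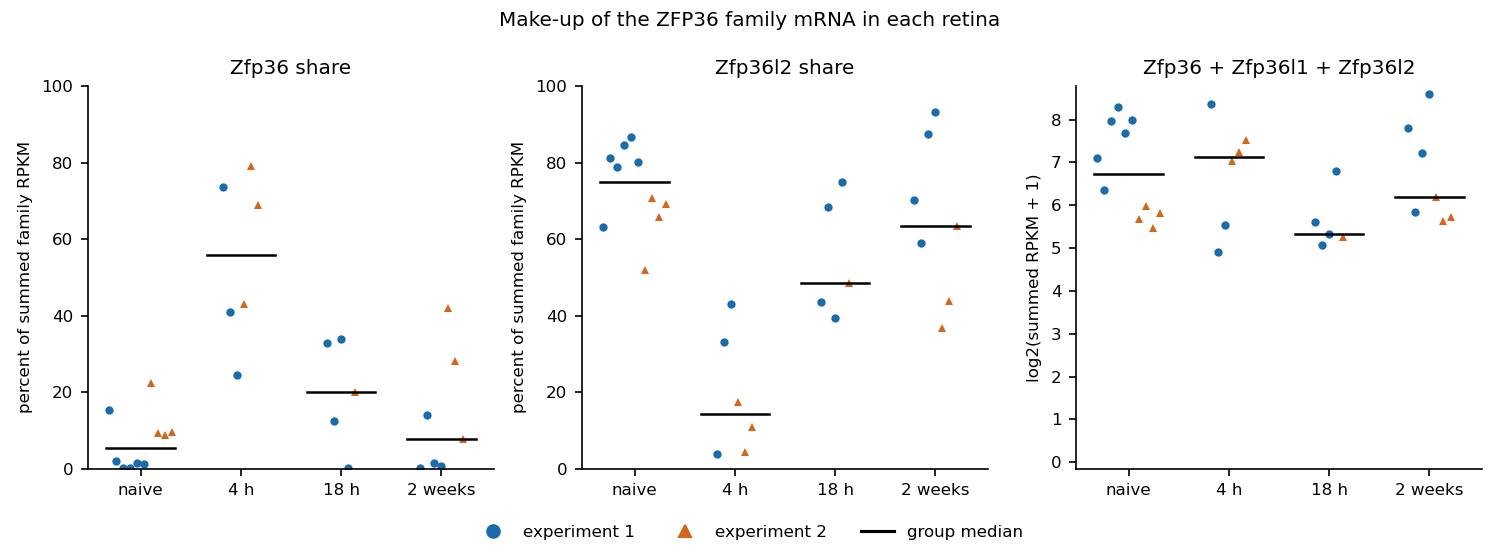
Share of Zfp36 (left) and Zfp36l2 (middle) in the summed RPKM of the ZFP36 family, in percent, and the summed RPKM itself as log2(RPKM + 1) (right), 1 point per retina. Circles are experiment 1, triangles experiment 2 and bars group medians. The median Zfp36 share was 5.35% in naïve retinas and 55.9% at 4 h.

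Zc3h12a encodes Regnase-1, the ribonuclease that cuts stem-loops in Il6 and other inflammatory mRNAs. It was low in naïve retinas, with values from 0 to 3.07 RPKM and a median of 0.802. At 4 h the values were 45.5, 2.56 and 4.48 RPKM in experiment 1 and 7.91, 9.23 and 6.62 RPKM in experiment 2. Of these 6 retinas, 5 exceeded every naïve retina. The log2 fold change was 2.21 ± 0.45 (4.64-fold; limma adjusted p = 0.00108). Within the experiments it was 2.18 ± 0.79 (adjusted p = 0.181, not called) and 2.30 ± 0.25 (adjusted p = 0.000165). On untransformed RPKM the call was lost (adjusted p = 0.0698).

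At 18 h Zc3h12a was down to 0.69, 0.339, 1.94, 0.0306 and 0.798 RPKM, and every 18 h retina was below every 4 h retina, as for 2.79% of all genes tested (367 genes). The log2 difference between 18 h and 4 h was -2.49 ± 0.53 (adjusted p = 0.0031), and between 18 h and naïve it was -0.27 ± 0.48 (adjusted p = 0.829). The 2-week range was 0 to 6.46 RPKM (median 1.03), with a log2 difference of -2.26 ± 0.49 from 4 h (adjusted p = 0.00254). Neither fall from 4 h passed in experiment 1 alone (adjusted p = 0.183 and 0.255).

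Zc3h12c encodes Regnase-3, a relative of Regnase-1 that is active in myeloid cells. Naïve retinas held 0.0848 to 1.93 RPKM (median 0.969), and the 4 h retinas held 5.58, 13.8 and 16.2 RPKM in experiment 1 and 5.73, 5.75 and 5.38 RPKM in experiment 2. Every 4 h retina was above every naïve retina, as for 1.65% of all genes tested (217 genes). The log2 fold change was 2.23 ± 0.32 (4.69-fold; limma adjusted p = 8.78e-06). It was called in both experiments, at 2.94 ± 0.53 (adjusted p = 0.00187) and 1.37 ± 0.23 (adjusted p = 0.00253), and the difference between them was not called (-1.57 ± 0.61, adjusted p = 0.787).

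At 18 h the Zc3h12c values of 0.72, 1.21, 1.54, 0.553 and 1.06 RPKM were all below the 4 h values and inside the naïve range. The log2 difference was -2.16 ± 0.38 from 4 h (adjusted p = 0.000292) and 0.07 ± 0.34 from naïve (adjusted p = 0.946). At 2 weeks the range was 0.591 to 6.23 RPKM (median 1.46), lower than at 4 h (-1.70 ± 0.35, adjusted p = 0.00147; -2.01 ± 0.57 with adjusted p = 0.0769 in experiment 1 alone). At the low naïve medians of Zc3h12a and Zc3h12c, a pseudocount of 10 in place of 1 reduced their 4 h log2 fold changes to 0.81 and 0.74, under the 2-fold limit.

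Rc3h1 encodes Roquin-1, which binds stem-loops and recruits deadenylases. It ranged from 1.76 to 6.78 RPKM (median 3.57) in naïve retinas and from 1.26 to 5.77 RPKM (median 2.31) at 4 h, overlapping almost fully, and was not called (-0.27 ± 0.36, limma adjusted p = 0.735). At 18 h the values were 0.482, 0.777, 0.603, 4.29 and 1.60 RPKM. Of these 5 retinas, 4 were below every naïve retina, but the log2 difference of -0.92 ± 0.38 did not pass (adjusted p = 0.178). At 2 weeks it ranged from 1.17 to 7.38 RPKM with a median of 1.71 (-0.26 ± 0.34, adjusted p = 1).

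Elavl1 encodes HuR, which competes with the decay-promoting proteins at AU-rich elements. It ranged from 4.14 to 15.1 RPKM (median 6.74) in naïve retinas and from 6.14 to 15.7 RPKM (median 8.95) at 4 h (log2 difference 0.32 ± 0.34, limma adjusted p = 0.662). At 18 h it was 24.9, 11.9, 17.0, 13.7 and 15 RPKM, the highest group median of the 4 at 15 RPKM. Only 2 of these 5 retinas exceeded every naïve retina, and the log2 difference of 0.95 ± 0.37 was not called (adjusted p = 0.145). With sample weights, which give less influence to variable retinas, it was 1.08 ± 0.22 and was called (adjusted p = 0.000436). The weights called 779 of all genes higher at 18 h, against 374 without them. At 2 weeks the Elavl1 range of 3.18 to 22.3 RPKM enclosed the naïve range.

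Khsrp encodes KSRP, which binds AU-rich elements and interacts with the exosome. It was low throughout, at 0.494 to 3.67 RPKM (median 0.984) in naïve retinas, 0.13 to 2.73 RPKM (median 0.948) at 4 h and 0.625 to 9.18 RPKM (median 1.11) at 2 weeks. The 18 h values were 1.32, 1.00, 1.49, 2.15 and 0.887 RPKM, all inside the naïve range. Its log2 differences from naïve were -0.07 ± 0.33, 0.12 ± 0.35 and 0.24 ± 0.32 in order of time (limma adjusted p = 0.941, 0.905 and 1).

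**Figure D3:**
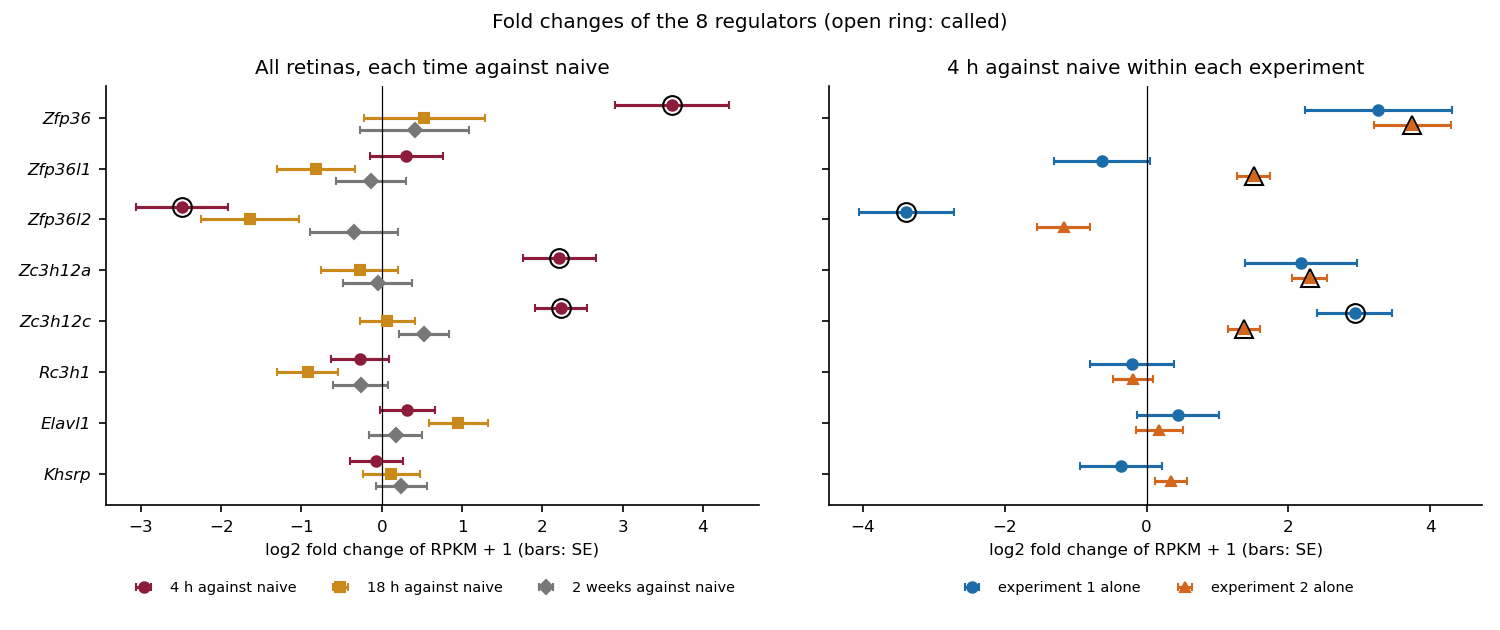
Log2 fold changes of the 8 regulators from naïve on the log2(RPKM + 1) scale, for the 3 times over all retinas (left) and at 4 h within each experiment (right). Bars are SE and open rings mark called changes. At 4 h Zfp36 was at 3.61 and Zfp36l2 at -2.49, and no gene was called at 18 h or 2 weeks.

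Counted over the comparisons, 0 of the 8 regulators were called by limma at 18 h against naïve, where 4.69% of all genes (618 genes) were called in either direction. At an unadjusted p under 0.05 there were 3, Zfp36l2, Elavl1 and Rc3h1, beside 2301 of all genes (17.5%). At 2 weeks against naïve 0 of 8 were called and 0 had an unadjusted p under 0.05. The background there was 0.0076%, or 1 gene, with 378 genes at an unadjusted p under 0.05. Between 4 h and 18 h, 3 of 8 were called lower at 18 h (background 2.51%) and 0 higher. Between 4 h and 2 weeks, 3 of 8 were called lower (background 2.91%) and 1 higher (background 3.18%). All these comparisons share the naïve or the 4 h retinas, so they are not independent of each other. The response differed between the experiments in 0 of 8 regulators at 4 h, where 13 of all genes were called (0.0988%), and in 0 of 8 at 2 weeks, where no gene was called (0%). At an unadjusted p under 0.05 these counts were 3 and 0 of the 8, and 620 and 383 of all genes.

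Within the 4 h group, Zfp36 and Zc3h12a were both highest in replicate 1 (242 and 45.5 RPKM) and both lowest in replicates 2 and 3, where Zfp36 was at 11.9 and 11.2 RPKM and Zc3h12a at 2.56 and 4.48 RPKM. Zc3h12c was highest in replicates 2 and 3 (13.8 and 16.2 RPKM). All 3 of these retinas were from experiment 1. Replicates 2 and 3 also had the lowest Tnf (291 and 340 RPKM, against 1351 to 3291 RPKM in the other 4), the lowest summed rod photoreceptor markers (1634 and 1716 RPKM, against 3629 to 5964 RPKM) and the highest summed monocyte markers (174 and 71.8 RPKM, against 6.76 to 16.5 RPKM). Ms4a4c reached 158 RPKM in this group, while the defining monocyte markers Ly6c2 and Ccr2 were at no more than 1.91e-07 and 0.0321 RPKM and Chil3 was listed at 0. The part of those other transcripts in the result was not tested. No call at 4 h against naïve was lost on leaving out any 1 of the 28 retinas.

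Across all 28 retinas the pattern most like that of Zfp36 was Junb, a subunit of the AP-1 transcription factor (Pearson r = 0.96 on log2(RPKM + 1), and 0.93 after each group was centred), followed by Icosl (r = 0.93) and Ier3 (r = 0.92). In the 4 h retinas that had 242, 11.9, 11.2, 55.4, 119 and 125 RPKM of Zfp36, Junb was at 1039, 22.2, 29.6, 105, 426 and 240 RPKM. Naïve replicate 1, with the highest naïve Zfp36 (21 RPKM), also had the highest naïve Junb (143 RPKM). For Zfp36l2 the nearest genes were Tnfrsf21 (r = 0.94), C5ar2 (r = 0.91) and Qk (r = 0.90), and the order of the experiments recurred there, since Tnfrsf21 was at 50.9 to 317 RPKM in naïve retinas of experiment 1 and 17.4 to 31.6 RPKM in those of experiment 2. For Zc3h12a they were Csrnp1 (r = 0.90), Maff (r = 0.88) and Cdc42ep2 (r = 0.88), and for Zc3h12c Lrrc63, Il27 (both r = 0.87) and Mllt6 (r = 0.86). The coefficients of the other 4 were lower: Irf2bp2 for Zfp36l1 (r = 0.74), Med13l for Rc3h1 (r = 0.84), Rab5c for Elavl1 (r = 0.86) and Sfxn3 for Khsrp (r = 0.82). The points share libraries and the genes were picked as the highest of 13164, so no p is given.

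Among the regulators themselves, Zfp36 and Zc3h12a had r = 0.74 over 28 retinas and Zfp36 and Zfp36l2 r = -0.73. With each group centred these became 0.48 and -0.59, and Zfp36 against Rc3h1 was -0.71. Zc3h12a and Zc3h12c, both higher at 4 h, had r = 0.45 over all retinas and -0.52 with the groups centred.

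The 250 bases upstream of the RefSeq start (GRCm38.p6) were searched on both strands for 4 motifs: the kB motif GGGNNTTTCC, the AP-1 motif TGANTCA, the TATA motif TATAAA and the CArG box, the serum response factor site. A promoter was listed for 7 of the 8 genes, all but Zfp36l2, and 2 starts were listed for Zc3h12c. Zfp36 held a CArG box, 58 to 49 bases before its start, which 1.47% of all 32851 promoters of this length held. Zfp36l1 held an AP-1 motif and a TATA motif, and Rc3h1 an AP-1 motif, found in 6.75% (AP-1) and 12.4% (TATA) of all promoters. Zc3h12a, Zc3h12c, Elavl1 and Khsrp held none of the 4, and no regulator held the kB motif, which 1.41% of promoters held. The promoters of the 2 ZFP36 family members that had one listed are shown, 5′ to 3′ towards the gene, with motifs in capitals. Zfp36 is chr7:28379229-28379478 and Zfp36l1 is chr12:80113014-80113263, both on the reverse strand.
Zfp36: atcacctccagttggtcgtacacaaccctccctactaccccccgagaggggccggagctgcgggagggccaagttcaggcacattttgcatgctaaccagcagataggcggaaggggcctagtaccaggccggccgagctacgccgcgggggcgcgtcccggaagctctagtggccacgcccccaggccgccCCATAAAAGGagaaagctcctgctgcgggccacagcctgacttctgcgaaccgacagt
Zfp36l1: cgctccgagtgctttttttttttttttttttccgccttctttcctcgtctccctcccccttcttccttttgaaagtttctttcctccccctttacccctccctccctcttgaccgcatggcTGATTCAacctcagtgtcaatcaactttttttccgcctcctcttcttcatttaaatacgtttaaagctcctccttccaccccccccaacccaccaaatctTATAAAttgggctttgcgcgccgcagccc

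The letters are a description of these windows, and no match says nothing about a factor. Zfp36, which rose 12.2-fold, and Zc3h12a and Zc3h12c, which rose 4.64-fold and 4.69-fold, shared none of the 4 motifs in this stretch.

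The other genes of the decay pathway were read against the share of all genes called in either direction. This share was 8.08% (1063 genes) at 4 h and 4.69% (618 genes) at 18 h, and no list was tested against it. Of 26 tested ARE and stem-loop binding proteins outside the 8, limma called 3 higher (N4bp1, Arid5a and Hnrnpa1) and 2 lower (Tia1 and Celf2) at 4 h. The median log2 fold change was -0.10. N4bp1, a ribonuclease related to the Regnases, went from 0 to 2.82 RPKM in naïve retinas to 5.57 to 20.6 RPKM at 4 h (5.66-fold on the log2(RPKM + 1) scale, SE of the log2 fold change 0.37, adjusted p = 1.56e-05). Arid5a, which binds and stabilises Il6 mRNA, rose by 2.26 ± 0.49 (adjusted p = 0.0021). Tia1, an AU-rich element binding protein that represses translation, fell to 0.458 times the naïve level (adjusted p = 0.0162). Hnrnpa1, a splicing factor that also binds AU-rich RNA, was called at 4 h (1.04 ± 0.29, adjusted p = 0.0183) and, alone in this list, at 18 h (1.25 ± 0.31, adjusted p = 0.0118). It has many near-identical pseudogenes, so its values are uncertain.

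Of 27 deadenylase subunits and adaptors, 1 was called higher at 4 h, Btg3 (2.03 ± 0.58, adjusted p = 0.0208), a member of the BTG/Tob adaptor family, and 1 lower, Paip2 (-1.40 ± 0.39, adjusted p = 0.0191), an inhibitor of poly(A)-binding protein. At 18 h 0 were called. Of 21 decapping and 5′ to 3′ decay genes, 0 were called at either time. Of 21 exosome and SKI genes, 0 were called at 4 h and 1 at 18 h. This was Exosc6, an exosome ring subunit with a median of 7.80 RPKM at 18 h (2.31 ± 0.55, limma adjusted p = 0.0091). It ranged from 0 to 21.3 RPKM among the 18 h retinas. The naïve retinas overlapped with these, at 0 to 5.56 RPKM with a median of 6.35e-06 RPKM. The list medians at 4 h were -0.22, -0.14 and -0.12, close to the -0.11 of all genes.

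Of 23 kinases, phosphatases and proteases that act on the regulators, 4 were called higher and 2 lower at 4 h, with a median of 0.34. Dusp1, the phosphatase that switches off p38 and is also a ZFP36 target, rose from 0 to 8.11 RPKM to 178 to 1747 RPKM (log2 fold change 7.29 ± 0.67, adjusted p = 2.17e-09). Map2k3, which activates p38, and Mapkapk2 (MK2), the kinase that phosphorylates tristetraprolin, rose by 2.71 ± 0.72 (adjusted p = 0.0125) and 2.31 ± 0.55 (adjusted p = 0.00477). Mapk14, p38-alpha itself, fell by 1.88 at 4 h (SE 0.44, adjusted p = 0.00464) and by 1.65 at 18 h (SE 0.47, adjusted p = 0.0344). Malt1, the protease that cleaves Regnase-1 and Roquin, was the other gene called higher at 4 h, and Ywhah, a 14-3-3 protein, the other called lower.

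**Figure D4:**
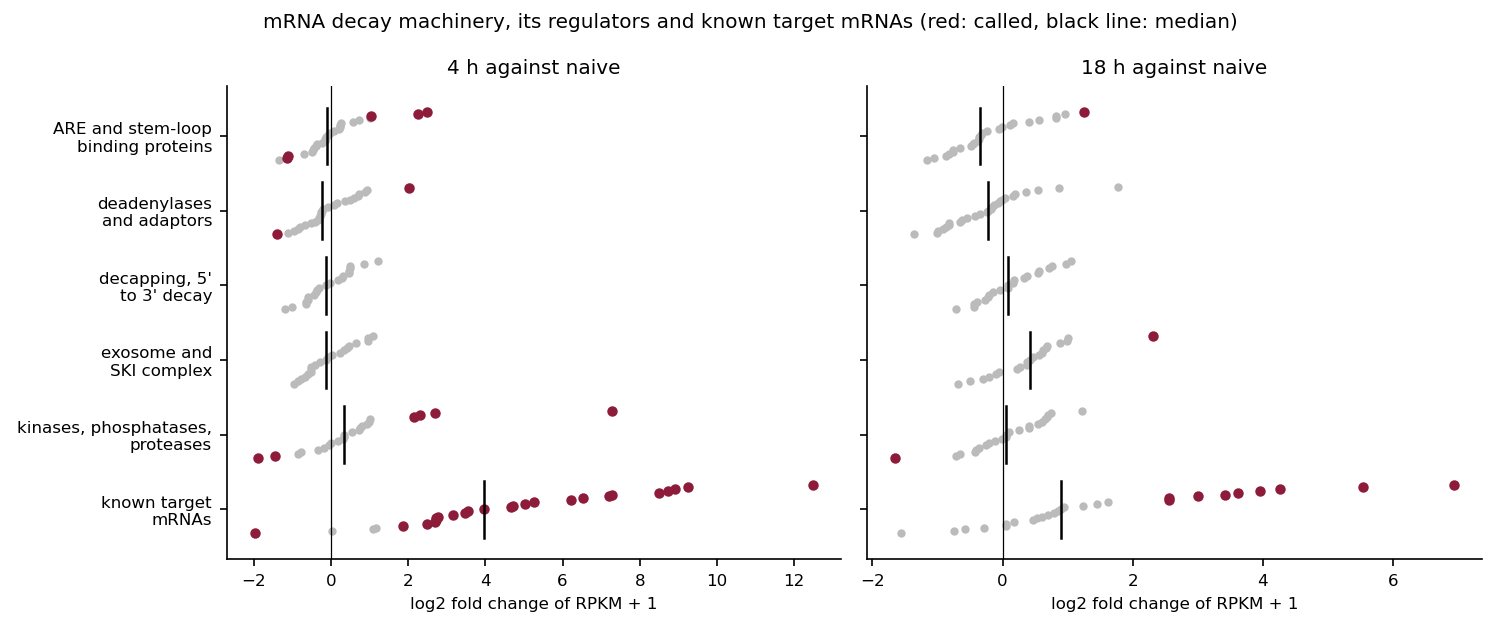
Log2 fold change at 4 h (left) and 18 h (right) of every tested gene in 6 lists, sorted within each list. Red points are called genes, grey points are not, and black lines are list medians. At 4 h the median of the known targets was 3.97 and those of the decay machinery were between -0.22 and -0.10.

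The mRNAs known to be destabilised by ZFP36 or Regnase-1 included most of the called genes of these lists. Of 27 tested, 23 (85.2%) were called higher at 4 h (background 3.68%) and 1, Calcrl, lower (background 4.39%). Their median log2 fold change was 3.97. At 18 h 9 were called higher (33.3%) and 0 lower, beside 374 and 244 of all 13164 genes, with a list median of 0.90. At 2 weeks 0 were called (background 0.0076%). Il12b, the p40 subunit of IL-12, rose from 0 to 0.0799 RPKM to 2333 to 11307 RPKM at 4 h (12.50 ± 0.49, adjusted p = 3.09e-18) and was at 25.9 RPKM (median) at 18 h. Tnf rose from a median of 0.364 to 1514 RPKM (9.26 ± 0.58, adjusted p = 4.57e-13), and Il1b from 0.443 to 890 RPKM (8.91 ± 0.65, adjusted p = 1.17e-11). At 18 h the 3 with the largest change were Ccl2 (6.94 ± 0.67, adjusted p = 1.38e-08), Lcn2 (5.54 ± 0.60, adjusted p = 1.48e-07) and Il12b (4.27 ± 0.52, adjusted p = 1.22e-06). Many of these genes are also direct products of LPS-activated transcription, and levels alone do not measure decay. The list was written with earlier results of these data known, so its direction is not independent evidence.

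From 4 h to 18 h, 18 of the 27 were called lower (background 2.51%) and 1, Lcn2, higher (2.81 ± 0.66, adjusted p = 0.00764). Of the 27, 21 held TATTTAT in the 3′ UTR, and 18 of these were called higher at 4 h, beside 5 of the 6 without it (Ccl2, Nfkbiz, Nfkbid, Lcn2, Myc and Cxcl10, of which Myc was not called).

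The same motif was set against the calls over all genes with an annotated 3′ UTR. At 4 h 164 of 3124 genes with the motif (5.25%) and 243 of 7502 without it (3.24%) were called higher, and 5.15% and 4.19% were called lower. At 18 h 1.31% with and 3.41% without the motif were called higher, and 2.46% and 1.59% lower. At 2 weeks 0 genes with the motif were called. Genes with the motif had longer 3′ UTRs, with a median of 2110 bases against 818.5, and the share called also moved with length, so the genes were divided by length after these shares had been seen. Below 1000 bases, 9.02% of 610 genes with the motif and 3.21% of 4326 without it were called higher at 4 h. From 1000 to under 2000 bases the shares were 6.36% and 3.34%, and from 2000 bases upward they were 3.27% and 3.18%. At 18 h, at each length, the share called higher was lower with the motif, at 3.28% against 4.67%, 9 of 865 against 37 of 1794 genes, and 0.728% against 1.23%. By number of copies, 4.84% of genes with 1 copy, 4.93% with 2 and 7.71% with 3 or more were called higher at 4 h, and 1.5%, 0.725% and 1.4% at 18 h. These shares are descriptions and were not tested.

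**Figure D5:**
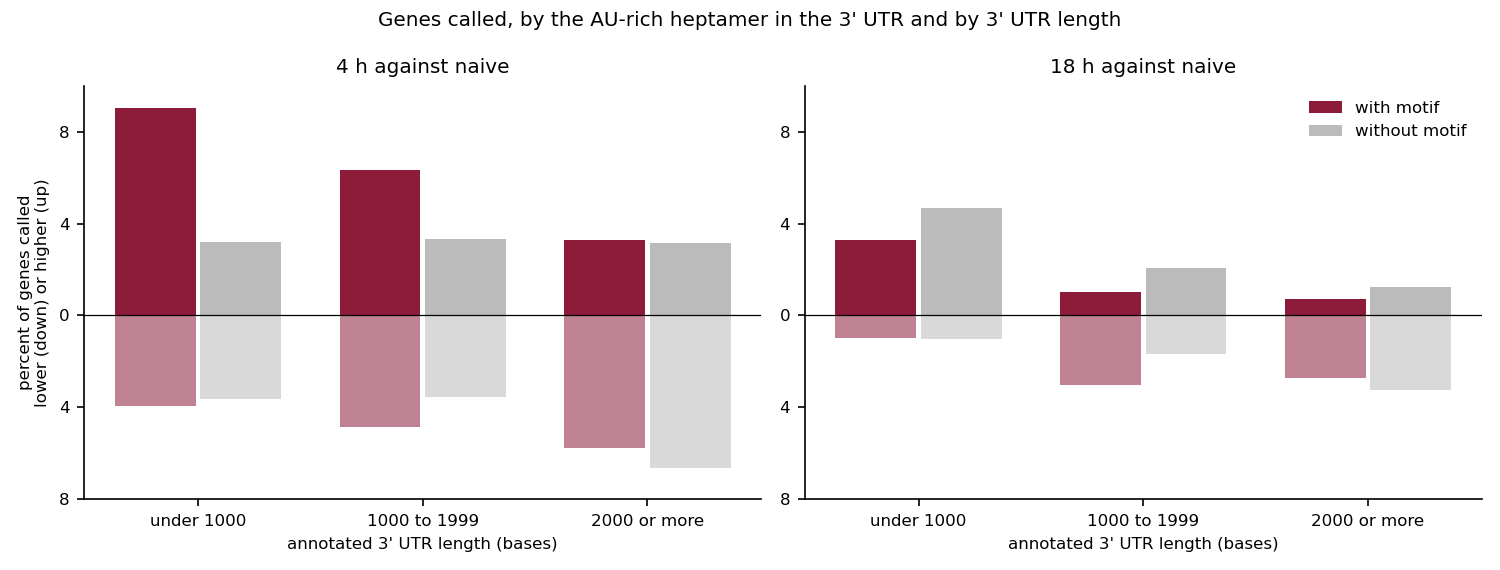
Percent of genes called higher (above 0) and lower (below 0) at 4 h (left) and 18 h (right), for genes with (red) and without (grey) TATTTAT, by annotated 3′ UTR length in bases. At 4 h and below 1000 bases, 9.02% of genes with the motif and 3.21% of those without it were called higher.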

How the data were processed

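mRNA-Seq was performed by the authors on microglia sorted from single retinas. Per the labels, reads were converted with bcl2fastq 2.20 and aligned to mm10 with STAR 2.5.3a. Partek quantified them on Ensembl transcripts by expectation-maximisation, which can divide a read between genes and gives values near 0. The authors deposited RPKM values, so counting depth per gene is unknown and no count test was run. Their tables of differential expression hold only their own comparisons and were not used.

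RPKM values were log2-transformed with a pseudocount of 1, genes at 1 RPKM or more in 5 or more of 28 retinas were kept, and the 4 groups were fitted together in limma 3.58.1 (R 4.3.3) with a mean-variance trend. Genes were called at an adjusted p of at most 0.05 and 2-fold; the difference between the 2 experiments had no fold limit. The fit was tested on simulated data. The 8 genes and all gene lists were chosen with earlier results of these data known. Genes named besides the 8 were the 3 most correlated with each (not all are printed) and, per list, the 3 called genes with the largest change at 4 h and at 18 h; Calcrl, Celf2, Cxcl2, Malt1, Myc, Nfkbid, Nfkbiz, Cxcl10, Ywhah and the markers printed were picked once their values were known. Replicate numbers of different groups were not treated as pairs in the main fit. Alternatives are given in the closing section. Figures were drawn in Python 3.11.15.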

Additional observations from a re-analysis of the deposited data

Results flagged for a closer look

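In 5 of 32 combinations of regulator and group, 1 retina stood apart from the others by Dixon's test on log2(RPKM + 1), beyond its 95% critical value. Chance flags about 1 group in 20. At 2 weeks, replicate 1 had 65.7 RPKM of Zfp36l1, with the next retina at 24.0 RPKM, and 6.23 RPKM of Zc3h12c, with the next at 2.05 RPKM. Replicate 4 of the same group had 6.46 RPKM of Zc3h12a, with the next at 1.07 RPKM, and 9.18 RPKM of Khsrp, with the next at 1.45 RPKM. At 18 h, replicate 4 had 82.8 RPKM of Zfp36l2, with the next at 22.2 RPKM. That retina also had the lowest summed microglial markers of all 28 retinas (4679 RPKM), whose part in the value was not tested. All 3 retinas were from experiment 1. No regulator was called at 2 weeks or at 18 h against naïve when any 1 retina was left out.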

How the results depend on the processing

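Of the 11 values called among the regulators, 161 of 187 fits under other settings and 297 of 308 fits without 1 retina kept the call, and none reversed. Of the values not called, 13 of 671 fits under other settings and 0 of 1260 without 1 retina passed, and 52 and 60 of these fits had the opposite sign. Where a count moved, the cause was not tested. Experiment 2 had 1 retina at 18 h, so its 18 h fits assume that this retina varied like the other groups. These fits are within the totals above, but no 18 h counts of regulators or of the gene lists are given for experiment 2. The 18 h counts of genes with TATTTAT in experiment 2, higher and lower, are given below. They rest on this single retina, so no conclusion is drawn from them. Depth per gene is unknown, and values under 1 RPKM rest on the pseudocount.

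At 4 h 4 regulators were called, against 2 with a pseudocount of 10, 2 in experiment 1 alone and 2 on untransformed RPKM, where Zc3h12a (adjusted p = 0.0698) and Zfp36l2 (adjusted p = 0.182) were lost. At 18 h 0 were called, against 1 with experiment as a covariate, 1 after rescaling to the same summed RPKM and 2 with sample weights. Over all genes, the weights moved the 18 h calls from 374 higher and 244 lower to 779 and 997. Between 18 h and 4 h 3 were called, against 1 with a pseudocount of 10 and 1 in experiment 1. Between 2 weeks and 4 h 4 were called, against 1, 1 and 2 with a pseudocount of 10, in experiment 1 and untransformed (Zc3h12a and Zfp36l2 lost). The response at 4 h differed between experiments in 0, against 2 (Zfp36l1 and Zc3h12c) with sample weights. Without 1 retina each, the counts were 4 to 4 at 4 h, 0 to 0 at 18 h and at 2 weeks, 2 to 3 between 18 h and 4 h, 3 to 4 between 2 weeks and 4 h, and 0 to 0 for both differences between experiments.

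The labels do not say what a replicate number shared between groups means. Per the study's methods, retinas were sorted in blocks balanced over the groups. Deviations of same-numbered retinas had a mean correlation of 0.048 (lowest -0.329), beside 0.010 for other numbers. Within an experiment the means were 0.106 and 0.071. These means cannot decide whether the numbers mark blocks. With the replicate block 1 regulator, Zfp36l2, was called at 18 h (-2.44, adjusted p = 0.00697), and the counts in the other comparisons were 4, 0, 3, 4, 0 and 0, as without it.

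Over the 6 lists, 6 genes were called lower at 4 h, against 2 with a pseudocount of 10, 1 in experiment 1 and 11 after rescaling. At 18 h 11 were higher, against 7 in experiment 1. At 18 h 1 was lower, against 0 with a pseudocount of 10, 2 with a filter at 5 RPKM, 0 in experiment 1, 7 after rescaling and 3 after quantile normalisation. Of genes with TATTTAT, 164 were higher at 4 h, against 85 (pseudocount 10), 103 (experiment 1) and 308 (ATTTA instead), and 161 lower, against 35, 46, 252 (experiment 2), 259 (rescaled) and 363 (ATTTA). At 18 h 41 were higher, against 20 (experiment 1), 16 (experiment 2) and 153 (ATTTA), and 77 lower, against 13 (pseudocount 10), 17, 13, 167 (rescaled) and 164. Over all genes, rescaling changed the calls at 18 h from 374 higher and 244 lower to 226 and 469, and between 2 weeks and 4 h from 419 higher and 383 lower to 740 and 318.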
